A study of Rattus norvegicus with 6 samples.

Results

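The epithelial-mesenchymal transition genes described here are 10 genes chosen by their symbols, namely Cdh1, Epcam, Cdh2, Vim, Fn1, Snai1, Snai2, Zeb1, Zeb2 and Twist1. Of these, 9 had a row among the 18930 rows of the count table, and each of the 9 symbols stood in 1 row. Epcam, an adhesion molecule of epithelial cells, had no row under its symbol and was not analysed here. RNA was sequenced from NRK-52E, an established line of rat kidney epithelial cells of wild-type genotype. The Control group was 3 samples of cells given vehicle, and the STZ group was 3 samples of cells exposed for 24 h to streptozotocin (STZ) at 10 mM. STZ is a nitrosourea linked to glucosamine that alkylates DNA. All samples came from this 1 cell line, and no source says whether they were separate cultures, so each p-value measures the spread between these samples, which may be technical. The comparison asks which transcripts changed when these cells were exposed to STZ.

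In an epithelial-mesenchymal transition, epithelial cells loosen their junctions and take on features of migrating mesenchymal cells. E-cadherin, the product of Cdh1, holds epithelial cells together, whereas N-cadherin (Cdh2), vimentin (Vim) and fibronectin (Fn1) are the usual mesenchymal markers. The transcription factors Snail (Snai1), Slug (Snai2), Zeb1, Zeb2 and Twist1 bind E-box motifs in DNA and can repress Cdh1. In the kidney tubule, such a programme is known from injury and fibrosis, and TGF-beta is its best known inducer in cultured tubular cells.

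The result that moved furthest in this family was Snai2, which was 2.15-fold higher in STZ-treated cells. Cdh1 was lower, at 0.619 times its level in Control, on few reads. Vim and Fn1 were slightly lower and Zeb1 was slightly higher. Snai1 had a log2 fold change of -0.05 and did not pass the test, and Cdh2, Zeb2 and Twist1 were too scarce to test.

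Total counts lay between 10430924 and 15191349 per sample, and edgeR's TMM method gave scaling factors from 0.988 to 1.02. Levels are given below as CPM, the reads of a gene per 1000000 reads of the TMM-scaled library. Levels of different genes are not compared, since no transcript lengths were used. STZ was set against Control with the quasi-likelihood test of edgeR over the 11870 rows that its filter on low counts kept, with Benjamini-Hochberg adjustment, and 6 of the 10 members were among these rows. At an adjusted p-value under 0.05, 2 of the 6 were higher and 3 were lower, beside 25.9% higher and 25.1% lower among all genes tested. Thus 5 of 6 passed in either direction, where the background was 50.9%. With an absolute log2 fold change over 1 as well, 1 of the 6 passed, and the background was 3.37%. Because the background at the adjusted p-value alone is so high, passing it says little by itself, and sizes are given for each gene. In bulk RNA, fewer cells that express a gene and less of its RNA per cell cannot be told apart.

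RefSeq promoters, which span 250 bases before and 50 bases after a gene's start, were found for 6 of the 10 members on the GRCr8 build. Those of the 3 tested members among them, Zeb1, Snai1 and Vim, are shown because the factors of this family recognise E-boxes and the data compare these genes' levels. They lie at chr17:56810604-56810903 on the minus strand, chr3:176667226-176667525 on the plus strand and chr17:81577011-81577310 on the plus strand. Each is written 5′ to 3′ on the strand of its gene, and capitals mark every match to the E-box CANNTG, which reads the same on both strands.
Zeb1: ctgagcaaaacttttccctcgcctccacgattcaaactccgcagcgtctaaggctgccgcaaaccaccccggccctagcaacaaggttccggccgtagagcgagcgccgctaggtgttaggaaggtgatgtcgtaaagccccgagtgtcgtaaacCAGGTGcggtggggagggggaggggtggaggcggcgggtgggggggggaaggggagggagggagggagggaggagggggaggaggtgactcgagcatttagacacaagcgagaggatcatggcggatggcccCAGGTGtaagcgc
Snai1: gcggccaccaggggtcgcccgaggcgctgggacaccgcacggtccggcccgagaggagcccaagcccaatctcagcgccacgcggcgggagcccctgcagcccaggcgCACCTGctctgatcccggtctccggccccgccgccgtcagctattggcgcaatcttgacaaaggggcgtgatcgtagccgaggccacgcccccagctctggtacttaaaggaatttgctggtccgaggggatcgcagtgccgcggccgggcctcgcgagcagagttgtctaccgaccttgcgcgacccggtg
Vim: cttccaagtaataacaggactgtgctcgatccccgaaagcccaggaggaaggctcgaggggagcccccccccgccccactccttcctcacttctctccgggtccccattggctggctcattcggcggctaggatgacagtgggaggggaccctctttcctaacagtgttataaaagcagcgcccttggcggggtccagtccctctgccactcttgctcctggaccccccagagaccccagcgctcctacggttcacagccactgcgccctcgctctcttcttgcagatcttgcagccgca
The Zeb1 window held 2 E-boxes, both CAGGTG, with the first letter 95 bases before and 37 bases after the start. The Snai1 window held 1, CACCTG, with its first letter 142 bases before the start. CACCTG is CAGGTG read on the other strand, and both are forms of CANNTG. The Vim window held none. Among all 33469 promoters of 300 bases in the table, 72.1% held CANNTG and 18.8% held CAGGTG on either strand. A match is a description of the letters and no evidence of binding.

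Snai2 encodes Slug, a zinc-finger repressor of epithelial genes. It had 56, 56 and 58 reads in the Control samples and 153, 119 and 156 reads in the STZ samples, in replicate order here and below. Every STZ sample lay above every Control sample, and the spread within each group was small. The level was 4.96 ± 0.394 CPM in Control (SD, n = 3) and 10.6 ± 0.433 CPM in STZ (SD, n = 3). STZ exceeded Control by 1.10 on the log2 scale, with a standard error of 0.14 and an adjusted p of 9.3e-09 (edgeR). This made Snai2 the only member past the fold-change threshold, which it exceeded by less than 1 standard error. Of all genes tested, 97.4% had a smaller absolute log2 fold change.

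Snai1 encodes Snail, the closest relative of Slug in this family and a repressor of Cdh1. Its level was 26.9, 23.0 and 22.5 CPM in Control and 20.7, 24.3 and 24.8 CPM in STZ. The groups overlapped, with the highest and the lowest value in replicate 1 of either group. Its log2 fold change of -0.05, with a standard error of 0.09, had an adjusted p of 0.684 by edgeR's test, and turned to 0.03 without Control replicate 1 and to 0.04 without STZ replicate 1. The number of Snai2 reads per 100 Snai1 reads does not depend on library scaling and was compared between samples only. It was 19.6, 22.1 and 20.1 in Control and 53.7, 42.5 and 41.9 in STZ. The groups did not overlap, and the ratio was 2.22-fold higher in STZ. Since Snai1 changed little, this largely repeats the rise of Snai2. An exact two-sided permutation test over the 6 samples gave p = 0.1, the smallest p that 3 samples against 3 allow.

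Zeb1 encodes a zinc-finger homeobox factor that represses Cdh1. Its level was 64.4, 66.7 and 68.2 CPM in Control and 73.9, 73.1 and 73.3 CPM in STZ. All STZ samples were above all Control samples, and the STZ samples were nearly equal. This was a rise of 1.10-fold, or 0.14 on the log2 scale, with a standard error of 0.05 and an adjusted p of 0.0173 (edgeR). Zeb1 did not pass when libraries were scaled by their size only (adjusted p = 0.0679), with DESeq2's Wald test (adjusted p = 0.0541) or without Control replicate 1 (adjusted p = 0.0808). In the GRCr8 annotation the span of Zeb1 overlaps LOC120097729, a long non-coding RNA, and LOC120097728, and whether reads were counted by strand is not given in the sources used here.

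Zeb2, the paralog of Zeb1, had 0 reads in each Control sample and 1, 2 and 0 reads in the STZ samples. A count of 0 allows up to 3 counts, or 0.234 to 0.283 CPM in the Control samples, so no difference was detectable at this depth. Twist1, which encodes a basic helix-loop-helix factor, had 5, 0 and 2 reads in Control and 3, 2 and 1 in STZ. Its summed count per scaled library in STZ was 0.733 times that in Control, with an exact 95% binomial interval of 0.204 to 2.55 that covers counting error only. With every row tested, edgeR gave an adjusted p of 0.302 for Zeb2 and 0.773 for Twist1. The span of Zeb2 overlaps its antisense gene Zeb2-as1, so the few reads may not be those of Zeb2 alone.

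**Figure D1:**
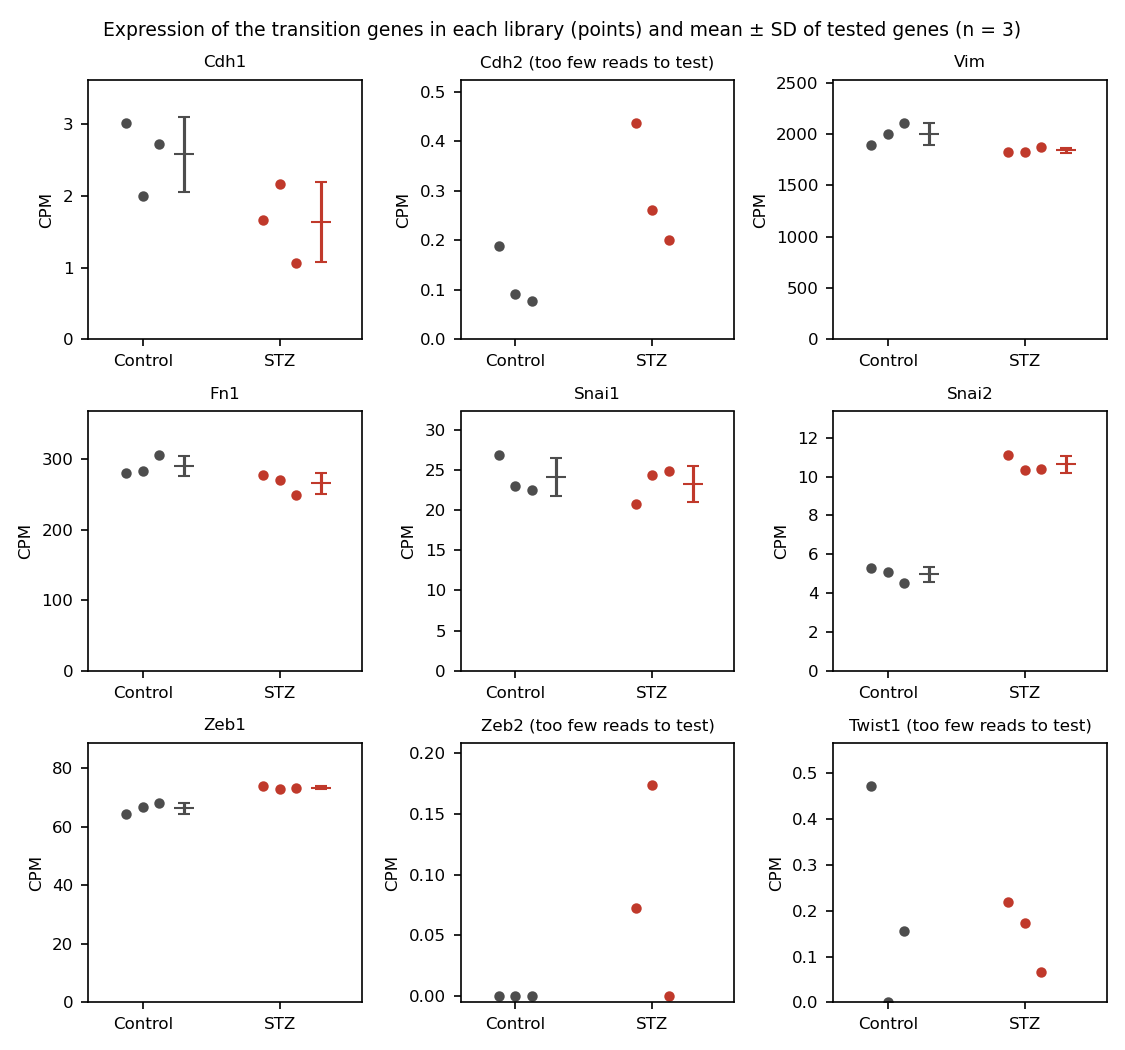
Levels in CPM (vertical axes from 0) of the 9 genes with a row, in the 3 Control samples (grey points) and the 3 STZ samples (red points, in replicate order), with the mean ± SD beside the points for the 6 genes tested. Snai2 separates clearly, from 4.52 to 5.28 CPM in Control and from 10.3 to 11.1 CPM in STZ, while Cdh1 and Snai1 overlap between the groups.

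Cdh1 encodes E-cadherin, the adhesion molecule of epithelial junctions. It was scarce in these cells, with 32, 22 and 35 reads in Control and 23, 25 and 16 reads in STZ. Per scaled library, this was 3.02, 2.0 and 2.73 CPM in Control and 1.67, 2.17 and 1.07 CPM in STZ. The groups overlapped, since STZ replicate 2 lay above Control replicate 2. The mean was 2.58 ± 0.524 CPM in Control (SD, n = 3) and 1.64 ± 0.553 CPM in STZ (SD, n = 3). On the log2 scale the change was -0.69, with a standard error of 0.27 and an adjusted p of 0.0296 (edgeR). The call rests on few reads: it was lost with DESeq2's Wald test (adjusted p = 0.113) and when Control replicate 1 (adjusted p = 0.113), Control replicate 3 (0.0847), STZ replicate 1 (0.0572) or STZ replicate 3 (0.223) was left out. Without STZ replicate 3, which had the lowest level, the log2 fold change was -0.44.

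Cdh2, which encodes N-cadherin, had 2, 1 and 1 reads in Control and 6, 3 and 3 reads in STZ. Its summed count per scaled library in STZ was 2.57 times that in Control, with an exact 95% binomial interval of 0.778 to 10.9 for counting error. With every row tested, its adjusted p was 0.331 by edgeR, so no difference was detectable from 16 reads. The balance of both cadherins can therefore not be compared between the groups.

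Vim encodes the intermediate filament vimentin and was well covered, with 20083 to 28027 reads per sample. Its level was 1893, 2004 and 2106 CPM in Control and 1829, 1828 and 1870 CPM in STZ. All STZ samples lay below all Control samples, but STZ replicate 3 was close to Control replicate 1. Vim changed by -0.12 on the log2 scale, with a standard error of 0.04 and an adjusted p of 0.00524 (edgeR), which was 0.0537 without Control replicate 3. Fn1 encodes fibronectin, a protein of the extracellular matrix. It had 280.6, 283 and 306 CPM in Control and 278, 269 and 249 CPM in STZ, so the lowest Control sample and the highest STZ sample nearly met. Its change was -0.13 on the log2 scale, with a standard error of 0.04 and an adjusted p of 0.0092 (edgeR), and the call was lost without Control replicate 3 (adjusted p = 0.0824) or STZ replicate 3 (adjusted p = 0.139). Both mesenchymal markers thus fell by under 10%, while the repressor Snai2 rose. Among the 6 tested members, the groups did not overlap for Vim, Fn1, Snai2 and Zeb1, 4 of 6, beside 56.3% of all genes tested.

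**Figure D2:**
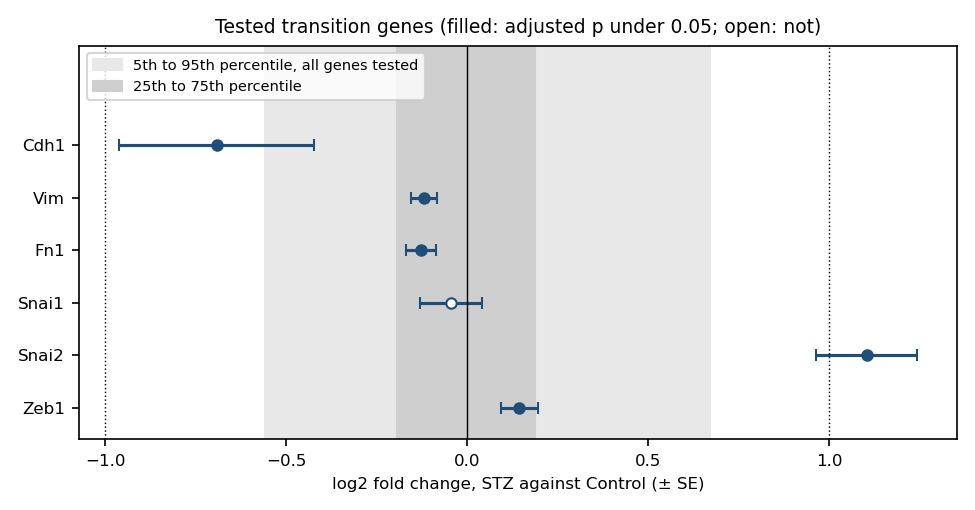
Log2 fold change of STZ against Control (horizontal axis, point ± standard error) of the 6 tested members, with dotted lines at an absolute value of 1 and grey bands for the middle of all 11870 genes tested. Vim, Fn1, Snai1 and Zeb1 lie inside the band from -0.19 to 0.19 that holds the 25th to 75th percentiles, while Snai2 at 1.10 and Cdh1 at -0.69 lie outside the band from -0.56 to 0.67 that holds the 5th to 95th percentiles.

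Wider lists of genes place these values in their pathway. All of these lists were written with earlier results of these data known, so their counts are descriptions and no independent support. In a list of 25 epithelial genes, 19 had a row and 8 were tested, of which 3 were higher and 0 lower at an adjusted p-value under 0.05 by edgeR's test. For this and the following lists, the background was again 25.9% higher and 25.1% lower among all genes tested. Lower genes also numbered 0 at an unadjusted p under 0.05, with DESeq2's Wald test and with limma-voom. Among the 8, Dsp, Elf3, Muc1 and Ovol1 had between 5 and 44 reads per sample and standard errors of 0.27 to 0.38. They were named after their values were seen, and a modest fall in them could have been missed. The median log2 fold change of these 8 genes was 0.15, beside -0.01 over all genes tested. Krt8, a keratin of simple epithelia, had a mean of 1149 ± 40.7 CPM in Control and 1604 ± 8.05 CPM in STZ (SD, n = 3 each), a log2 fold change of 0.48. Tjp1, which encodes the tight junction scaffold ZO-1, had a log2 fold change of 0.15. In the GRCr8 annotation its span overlaps 2 long non-coding RNAs and a tRNA gene. The third gene higher in this list was Jup, plakoglobin, with a log2 fold change of 0.14, named after its value was seen. Another 11 rows of the list did not pass the filter on low counts, among them the splicing regulator Esrp2 and the factor Grhl2, which had at most 2 and 4 reads in a sample and were also named after their values were seen.

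Among 24 mesenchymal genes, all had a row and 20 were tested, of which 13 were higher and 4 lower, beside 25.9% and 25.1% of all genes tested. Their median log2 fold change was 0.30. With at least 10 counts required in every sample, 12 were higher and 5 lower. The genes with the smallest p among those higher were Tagln, which encodes the actin-binding protein transgelin, and Cd44, the receptor of hyaluronan. Tagln had 47.6, 50.01 and 56.7 CPM in Control and 108, 109.8 and 104 CPM in STZ, a log2 fold change of 1.05 (standard error 0.05). Cd44 had 41.9, 49.0 and 51.2 CPM in Control and 99.1, 98.8 and 109 CPM in STZ, a log2 fold change of 1.11 (standard error 0.06). For both genes the STZ samples stood well clear of the Control samples.

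Of those lower, Col3a1, a fibrillar collagen, had 60.1, 54.4 and 47.2 CPM in Control and 20.7, 23.8 and 19.3 CPM in STZ, a log2 fold change of -1.35 (standard error 0.08). Acta2, smooth muscle actin and a common marker of myofibroblasts, had a log2 fold change of -0.21 (adjusted p = 0.00359 from edgeR's test, and 0.062 without Control replicate 3). Axl and Mmp2 had the highest rises of this list and were named after their values were seen. Axl, a receptor tyrosine kinase, had 3, 2 and 3 reads in Control and 21, 14 and 17 in STZ, and a log2 fold change of 2.43 (standard error 0.47). With so few reads in Control, it passed the filter on low counts only through the STZ samples, and it was not tested where 10 counts were required in every sample. Mmp2, a matrix metalloproteinase that degrades basement membrane collagen, had 55, 40 and 43 reads in Control and 310, 237 and 268 in STZ, and a log2 fold change of 2.33 (standard error 0.14). Tagln, Cd44, Axl, Mmp2 and Col3a1 were the 5 genes of this list past both thresholds, which 3.37% of all genes tested passed.

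**Figure D3:**
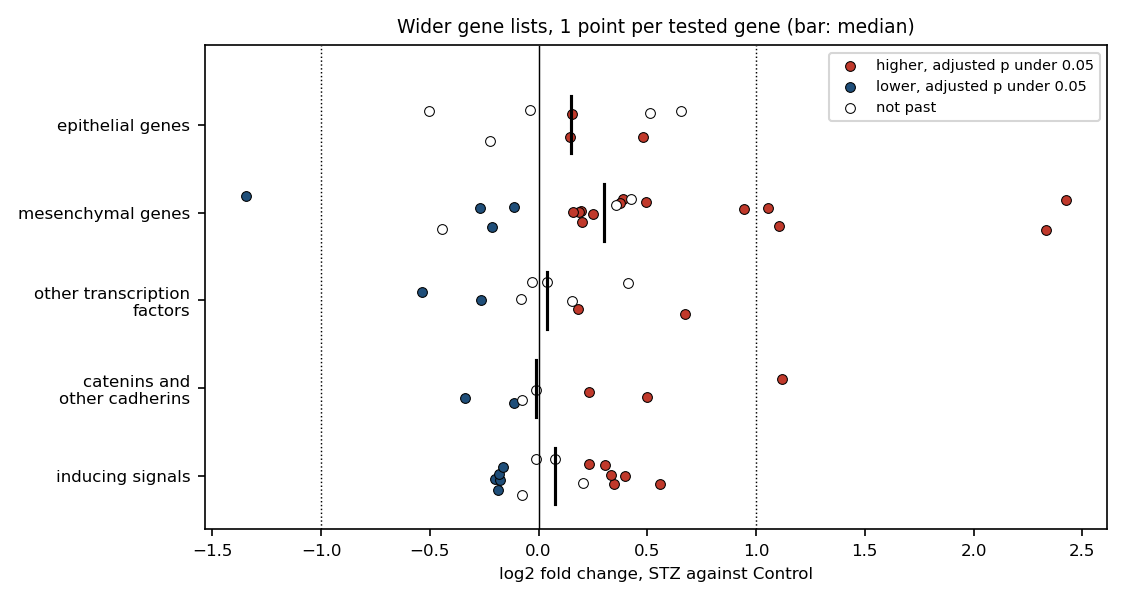
Log2 fold change of STZ against Control (horizontal axis) of each tested gene in 5 lists around the transition, red where higher and blue where lower at an adjusted p under 0.05, white where not past it, with a black bar at each median. The mesenchymal list has the widest range, from -1.35 (Col3a1) to 2.43 (Axl, which passed the filter on low counts only through its STZ samples). No tested epithelial gene was lower past the threshold.

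Of 15 other transcription factors linked to the transition, 12 had a row and 9 were tested, of which 2 were higher and 2 lower (median log2 fold change 0.04). Sox4 had a log2 fold change of 0.18, and its adjusted p from edgeR's test was 0.00939, or 0.0575 without Control replicate 1. Tcf3, which encodes the E-box-binding E2A proteins that pair with Twist1, was lower, with a log2 fold change of -0.54 from 111 ± 2.10 CPM to 76.7 ± 3.36 CPM (SD, n = 3 each). Tead2, a partner of YAP, had a log2 fold change of -0.27, and its span overlaps Cd37 and a long non-coding RNA in GRCr8.

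Catenins link cadherins to actin. In a list of 12 genes of catenins and other cadherins, 11 had a row and 7 were tested, of which 3 were higher and 2 lower (median log2 fold change -0.01). The list also holds Ctnnbip1, which encodes an inhibitor that binds beta-catenin. It was tested, did not pass, and was named after its value was seen. Cdh3, which encodes P-cadherin, was lower, at 668, 651 and 653 CPM in Control and 526, 519.6 and 514 CPM in STZ, and its log2 fold change was -0.34 (standard error 0.03). The groups of Cdh3 did not overlap. Cdh24, a type II cadherin, was higher, with a log2 fold change of 0.50. Ctnnd1, which encodes p120-catenin and steadies cadherins at the membrane, was higher by 0.23 on the log2 scale. Ctnnb1, beta-catenin, had a log2 fold change of -0.12 (adjusted p = 0.00559 from edgeR's test, and 0.0564 without STZ replicate 3). The third gene higher was Cdh17, named after its value was seen, with 7 to 12 reads in Control, 24 to 30 in STZ and a log2 fold change of 1.12. Its Control samples alone would not have passed the filter on low counts, and with at least 10 counts required in every sample, 2 genes of this list were higher.

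All 17 genes in a list of inducing signals had a row and 15 were tested, of which 6 were higher and 5 lower (median log2 fold change 0.07). Without Control replicate 3, 3 were lower. The list also holds Smad7, Ski and Skil, which restrain TGF-beta signalling, so its counts do not describe inducers alone. Smad7 (log2 fold change -0.18) and Skil (-0.17) were among the 5 lower, and Ski did not pass the test. These genes were named after their values were seen. Tgfbr2, the type II receptor of TGF-beta, had a log2 fold change of 0.34, from 360 ± 10.2 CPM to 457 ± 12.7 CPM (SD, n = 3 each). Egfr, the receptor of epidermal growth factor, had a log2 fold change of 0.31. The ligand gene Tgfb3 had a log2 fold change of -0.19, from 644 ± 2.08 CPM to 566 ± 10.7 CPM (SD, n = 3 each), and Smad4, the shared signal transducer of the pathway, one of -0.18. Of the other ligand genes, named after their values were seen, Tgfb1 was higher, with a log2 fold change of 0.40 from 54.5 ± 0.879 CPM to 71.8 ± 4.55 CPM (SD, n = 3 each), and Tgfb2 had a log2 fold change of -0.01 and did not pass the test.

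The labelled cell type was checked against markers. Krt8 was abundant, but Krt18, its usual partner, had at most 3 reads and the kidney cadherin gene Cdh16 at most 4 reads in any sample. Only uniquely mapped reads were counted, and 6 pseudogenes of Krt18 stand in the GRCr8 annotation, so the count of Krt18 is uncertain. Of 8 markers of kidney tubule, 5 had a row and only Aqp1 was tested. The summed level of 5 fibroblast markers with a row was 47.1 to 52.6 CPM in Control and 36.9 to 43.6 CPM in STZ. Nearly all of it came from Col1a1 and Pdgfrb, while Pdgfra, Lum and Thy1 had at most 4, 1 and 2 reads in a sample. The 5 endothelial markers summed to 2.64 to 4.15 CPM in Control and 1.65 to 2.40 CPM in STZ, and 3 leukocyte markers to 0.637 to 2.07 CPM in Control and 1.87 to 2.11 CPM in STZ, with at most 1 read of Ptprc in a sample. The part of these levels in the members' values was not tested.

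**Figure D4:**
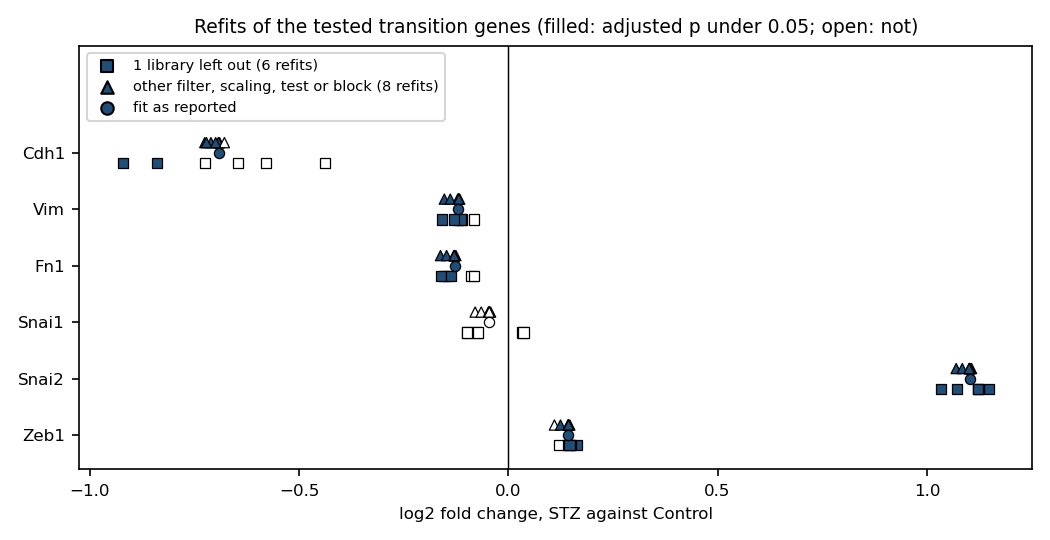
Log2 fold change of the 6 tested members (horizontal axis) in the fit as reported (circles), in 8 refits with another filter, scaling, test or replicate block (triangles) and in 6 refits that each leave out 1 library (squares), filled where the adjusted p was under 0.05. Snai2 stays filled and between 1.03 and 1.15 in all 14 refits, while Cdh1 runs from -0.92 to -0.44 and is filled in 9 of 14.

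Over these refits, Snai2 passed both thresholds in 14 of 14, with a log2 fold change between 1.03 and 1.15. Vim had an adjusted p under 0.05 in 13 of 14, Fn1 in 12, Zeb1 in 11, Cdh1 in 9 and Snai1 in 0. Direction was kept by all of them except Snai1.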

How the data were processed

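Total RNA of 3 Control and 3 STZ samples was sequenced from stranded mRNA libraries. The authors aligned the reads with STAR 2.7.10a to Rnor6, used featureCounts to count those that mapped uniquely, and deposited a table of raw counts with a column for each sample. The version of featureCounts, its annotation and its strand setting are not given in the sources used here. Columns were assigned to groups by the sample titles.

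Counts were scaled by TMM, filtered with filterByExpr and compared with the quasi-likelihood test of edgeR 4.0.16 in R 4.3.3 across all genes, with Benjamini-Hochberg adjustment. The study's thresholds were used (adjusted p under 0.05, and log2 fold change beyond 1 in either direction). A standard error is the size of the log2 fold change over the square root of F. CPM and intervals use TMM-scaled library sizes, and intervals and floors (3 counts) cover counting error only. The scripts were tested on simulated data. Replicates were not duplicates of one library (chi-square between them per degree of freedom of at least 1.80).

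The members and lists were chosen with earlier results of these data known. Named are all members and, per list, up to 2 higher and 2 lower genes with the smallest p. Others are marked as named after their values were seen. Cell type markers outside this rule were also named after their values were seen, mostly without a mark. A gene that this rule takes from the list of transcription factors is not reported here. No set test was run. Alternatives were 2 other filters, 3 other scalings, DESeq2 1.42.0, limma-voom (limma 3.58.1), a replicate block and each sample left out. Promoters and gene names came from RefSeq (GRCr8), and no coordinates were converted.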

Additional observations from a re-analysis of the deposited data

How the results depend on the processing

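The number of members past both thresholds was 1 under every alternative tried. Of the 6 members tested, the count higher at an adjusted p under 0.05 was 2 as reported, 1 with library size only, and 1 with DESeq2's Wald test, and leaving out single samples gave 1 to 2, the gene lost being Zeb1 each time. The count lower was 3 as reported, 2 with DESeq2's Wald test and 0 to 3 with 1 sample left out. It was 0 without Control replicate 3 and 1 without STZ replicate 3. Of 84 refits of these members, 71 kept direction and side of the threshold, 11 fell short of it and 2 reversed, both for Snai1, which ran from -0.099 to 0.036 with one sample left out. The log2 fold change of Twist1 without a filter turned to 0.074 with limma-voom and ran from -0.96 to 0.77 with one sample left out. With at least 10 counts in every sample, fewer genes were tested and 249 of all genes, against 400, passed both thresholds. With 1 sample left out, the list of other transcription factors had 1 to 2 genes higher. The list of catenins and other cadherins had 1 to 2 lower, and the list of inducing signals had 3 to 5 lower. The causes were not tested.

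Control and STZ samples share replicate numbers, and the labels do not say whether same-numbered samples were handled together. The deviations of same-numbered samples from their group means had correlations of 0.0356, -0.0298 and 0.0804 across 11297 genes. These values show no sign of pairing but cannot exclude it, and the reported fit did not pair the samples. Under the replicate block, 398 of all genes passed both thresholds and Cdh1 had a log2 fold change of -0.70. Depth limits Cdh1, Cdh2, Zeb2 and Twist1.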

Other observations

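Of the tested cell type markers, Krt8 was higher in STZ-treated cells, with a log2 fold change of 0.48, at an adjusted p under 0.05 (edgeR). Of the other 5, 4 were lower at the same threshold. Among all genes tested, 25.9% were higher and 25.1% lower. These 5 markers come from lists of different cell types, so the count describes no single cell type. Aqp1, the water channel of the proximal tubule, had 15.2, 15.2 and 8.81 CPM in Control and 5.89, 5.73 and 4.67 CPM in STZ, a log2 fold change of -1.25 (standard error 0.16). Vwf, von Willebrand factor of endothelium, had 3.39, 2.18 and 2.26 CPM in Control and 1.6, 0.521 and 1.27 CPM in STZ, a log2 fold change of -1.15 (standard error 0.30). Its STZ samples, with 22, 6 and 19 reads, would not alone have passed the filter on low counts. Kdr, of the same endothelial list, went the other way, with 0, 2 and 1 reads in Control and 6, 9 and 7 in STZ. Kdr did not pass the filter and was named after its value was seen. Pdgfrb, a receptor of mesenchymal cells, had a log2 fold change of -0.33 and Col1a1 one of -0.27, and the groups of Col1a1 overlapped. Cd68, a gene of macrophage lysosomes, had a log2 fold change of 0.40 (standard error 0.30), which did not pass the test.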
